A study of Mus musculus with 12 samples.

Results

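The respiratory chain subunits encoded in the nucleus were 87 genes of the 54109 gene identifiers counted in this mouse RNA-seq series. They were taken by symbol from the GENCODE M21 annotation of GRCm38: protein-coding genes whose names start with Ndufa, Ndufb, Ndufc, Ndufs, Ndufv, Uqcr, Cox4i, Cox5, Cox6, Cox7, Cox8 or Atp5, with Sdha, Sdhb, Sdhc, Sdhd and Cyc1 added and the Ndufaf assembly factors left out. By complex they were 36 genes of complex I, 4 of complex II, 9 of complex III, 20 of complex IV and 18 of complex V. Ndufa4 and Ndufa4l2 were placed in complex IV, where the Ndufa4 protein works.

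The respiratory chain sits in the inner mitochondrial membrane. Complex I (NADH dehydrogenase) and complex II (succinate dehydrogenase) pass electrons to ubiquinone, complex III (the cytochrome bc1 complex) passes them to cytochrome c and complex IV (cytochrome c oxidase) to oxygen, and complex V (ATP synthase) uses the resulting proton gradient to make ATP. Colonocytes, the absorptive cells of the colon, rely on this chain to burn butyrate, whereas activated immune cells lean more on glycolysis. Each complex except complex II also contains subunits encoded in the mitochondrial genome, which were not analysed here.

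RNA came from mice with acute colitis induced by dextran sulfate sodium (DSS), an agent that injures the colonic epithelium, so that every group had received DSS and no untreated group was present. Full colon and LPMC (short for lamina propria mononuclear cells, the leukocytes of the gut wall) were each taken from wild-type (WT) mice and from Gpr15l-/- mice (KO), which lack the ligand of the receptor Gpr15. The 12 libraries thus fell into 4 groups of 3 by tissue and genotype. The labels state no strain, age or sex. Nor do they tie each library to an animal of its own, and a p-value therefore speaks of variation among libraries, part of which could be technical.

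Library totals ran from 45.4 to 140.7 M counts (M for mega), which left the subunit genes well covered: 84 of the 87 passed the filter on low counts and were tested in each comparison. The remaining genes were Cox8c and an extra Atp5o identifier, both with 0 counts in every library, and Cox7b2, with 3 counts in LPMC WT replicate 1 and 0 elsewhere. The LPMC label held only in part. The summed level of 7 T cell markers was 41.0 to 167 in LPMC libraries and 3.75 to 35.8 in colon libraries, but that of 8 epithelial markers was still 8511 to 12058 in LPMC against 14234 to 27996 in colon. Sums of other leukocyte markers overlapped. B cell markers (5 genes) were 38.8 to 239 in LPMC and 1.58 to 649 in colon. Here the overlap came from colon WT replicate 1 alone, at 649, as the remaining colon libraries lay at 1.58 to 14.3. Monocyte and macrophage markers (7 genes) were 139 to 480 and 58.5 to 409, and neutrophil markers (6 genes) 50.4 to 528 and 259 to 758. Ly6g made up most of the neutrophil sum in colon. Its mean was 526 CPM in colon WT and 277 in colon KO, against 5.14 in LPMC WT and 3.84 in LPMC KO. Of the 6 neutrophil markers, 4 had a log2 fold change of LPMC to colon above 0 and 2 below, with 1 called in each direction. Fibroblast markers (6 genes) were 830 to 5089 in LPMC and 214 to 1000 in colon, and red blood cell markers (5 genes) 351 to 1782 and 4.44 to 41.5. These are levels in counts per M counts (CPM) after TMM scaling, the scale used for all levels here. In most of the subunit genes colon KO replicate 2 differed from its group. Results given with and without it are the counts of calls and medians over all subunit genes and the tissue ratios of the sums by complex. The same holds for the fold changes of named subunit genes between KO and WT in colon. Other values include it unless stated.

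The genes made up 2.14 to 2.33% of all reads in colon WT, 1.73 to 2.48% in colon KO, 1.53 to 1.68% in LPMC WT and 1.38 to 1.6% in LPMC KO. Their summed level was 23060 ± 1106 CPM in colon WT, 20571 ± 6382 in colon KO, 16081 ± 953 in LPMC WT and 14570 ± 1289 in LPMC KO (SD, n = 3). LPMC libraries were thus lower than colon WT libraries with no overlap, whereas the colon KO libraries spread from 16320 to 27910. In bulk RNA, fewer cells of a type and less RNA per cell cannot be told apart.

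Complex V genes summed to the most reads, with 8438 ± 599 CPM in colon WT, 7864 ± 1578 in colon KO, 6669 ± 441 in LPMC WT and 6053 ± 502 in LPMC KO. Complex IV genes summed to 4955 ± 65.6, 4313 ± 2168, 2896 ± 153 and 2622 ± 298 CPM in the same order. For complex I the sums were 5098 ± 217, 4255 ± 1500, 3210 ± 167 and 2910 ± 255 CPM. Of these 3 complexes, complex IV had the widest spread among colon KO libraries. Complex III genes summed to 3250 ± 200, 2870 ± 915, 2207 ± 136 and 1978 ± 162 CPM. Complex II genes summed to 1318 ± 149, 1269 ± 226, 1099 ± 87.2 and 1007 ± 76.3 CPM. The log2 ratio of the LPMC mean to the colon mean of these sums was -0.75 for complex IV, -0.61 for complex I, -0.55 for complex III, -0.36 for complex V and -0.30 for complex II. Without colon KO replicate 2 these were -0.61, -0.53, -0.47, -0.30 and -0.24, in the same order.

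**Figure D1:**
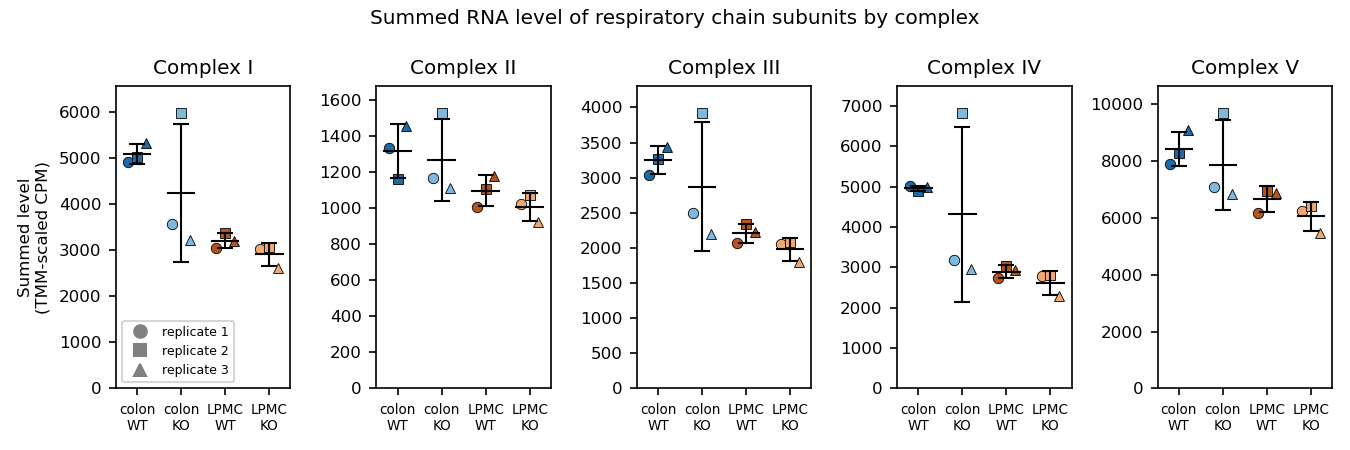
Summed level of the subunit genes of each complex, in TMM-scaled CPM, for each library (points, shaped by replicate) with the mean (line) and SD (bar) of each group of 3. In every complex colon KO replicate 2 is the highest library of all, and the other colon KO libraries lie below or close to the lowest colon WT library.

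Levels of different genes were compared per kilobase of union exon length, averaged over the 12 libraries. Within complex IV, Cox8a and Cox6a1, small structural subunits in their widely expressed forms, were highest at 781 and 693 CPM per kilobase. Within complex V, the catalytic F1 pair led, with Atp5a1 (alpha) at 567 and Atp5b (beta) at 510 CPM per kilobase. Uqcr10 and Uqcrh, small subunits of complex III, reached 368 and 283 CPM per kilobase. Complex II was led by Sdhd, a membrane anchor, at 277 CPM per kilobase, and complex I by Ndufa2 and Ndufa1, small accessory subunits, at 166 and 150 CPM per kilobase. Among genes with counts in every library, the lowest of complex I was Ndufb2 at 2.83 CPM per kilobase, of complex II Sdhc at 66.2 and of complex III Uqcrc1 at 102. Atp5s, known as coupling factor B and not a fixed subunit of the enzyme, was the lowest of complex V with any counts, at 3.20 CPM per kilobase. The order depends on which exons count toward the length. With the transcript of the longest coding sequence in place of the exon union, Atp5b led complex V at 1129 and Uqcrh led complex III at 639 CPM per kilobase, while Cox8a and Cox6a1 still led complex IV at 879 and 852. Complex I was then led by Ndufa3 at 276 and Ndufa6 at 253 CPM per kilobase, and Ndufa2 and Ndufa1 came 9th and 11th.

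Promoter windows around the annotated starts were available from RefSeq (GRCm38.p6) for 69 of the 87 genes. The following 4 are shown because they carry the motifs known from promoters of respiratory genes, or lack them. Cox6a1 (chr5:115348909-115349208) and Cox8a (chr19:7217567-7217866) are the highest genes of complex IV per length, Cox8b (chr7:140900397-140900696) is the heart and skeletal muscle form that can take the place of Cox8a in rodents, and Sdha (chr13:74350191-74350490) encodes the flavoprotein of complex II. All lie on the minus strand and are written 5′ to 3′ along the gene. Capitals mark the NRF1 motif (GCGCA and GCGC with any base between them, the core of the site of the factor NRF1), CCGGAAG (the core of ETS family sites such as that of GABP) and TATAAA (the TATA box), each on either strand.
Cox6a1: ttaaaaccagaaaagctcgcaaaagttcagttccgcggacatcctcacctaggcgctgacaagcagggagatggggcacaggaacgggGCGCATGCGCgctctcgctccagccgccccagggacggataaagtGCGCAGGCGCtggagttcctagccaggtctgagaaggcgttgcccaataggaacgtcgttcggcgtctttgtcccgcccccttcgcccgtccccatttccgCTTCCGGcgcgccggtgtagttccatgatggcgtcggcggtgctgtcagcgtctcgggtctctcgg
Cox8a: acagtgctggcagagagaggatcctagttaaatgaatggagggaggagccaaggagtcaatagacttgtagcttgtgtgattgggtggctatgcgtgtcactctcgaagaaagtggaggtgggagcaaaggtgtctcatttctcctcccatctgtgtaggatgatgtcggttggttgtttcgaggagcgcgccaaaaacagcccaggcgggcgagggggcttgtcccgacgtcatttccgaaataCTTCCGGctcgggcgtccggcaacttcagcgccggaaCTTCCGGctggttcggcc
Cox8b: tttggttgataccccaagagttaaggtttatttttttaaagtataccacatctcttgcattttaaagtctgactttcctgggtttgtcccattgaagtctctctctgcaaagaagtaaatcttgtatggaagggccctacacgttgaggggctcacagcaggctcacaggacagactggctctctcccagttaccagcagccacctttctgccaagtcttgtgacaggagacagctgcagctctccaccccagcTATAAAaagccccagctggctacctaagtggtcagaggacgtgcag
Sdha: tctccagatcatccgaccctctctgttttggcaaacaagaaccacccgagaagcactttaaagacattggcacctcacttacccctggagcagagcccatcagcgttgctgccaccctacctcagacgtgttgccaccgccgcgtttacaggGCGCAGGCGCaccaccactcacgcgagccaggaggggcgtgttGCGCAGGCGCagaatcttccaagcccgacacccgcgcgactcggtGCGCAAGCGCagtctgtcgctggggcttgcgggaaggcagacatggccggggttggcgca
The Cox6a1 window held the NRF1 motif at 2 places and the ETS core at 1, and the Cox8a window held the ETS core at 2 places. Sdha held the NRF1 motif at 3 places, and in the Cox8b window only TATAAA was found.

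A gene with more than 1 window was counted once, if any of its windows matched. Over the 69 genes, the NRF1 motif was present in 17 (24.6%), against 5.19% of 27025 genes. CCGGAAG was present in 16 (23.2%, against 9.93% of all genes), and AAGATGGCG, the core of the YY1 site, in 7 (10.1%, against 1.64%). TATAAA was present in 7 (10.1%, against 15.7%). By complex, the NRF1 motif was found in 7 of 32 genes of complex I, 2 of 3 of complex II, 1 of 5 of complex III, 1 of 14 of complex IV and 6 of 15 of complex V. AAGATGGCG was found only in complexes I and V, in 5 and 2 genes. Such matches describe letters in these windows and do not show that a factor binds there.

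To ask whether loss of Gpr15l went with a change in these genes in the inflamed colon, colon KO was compared with colon WT by edgeR's quasi-likelihood test with Benjamini-Hochberg adjustment over all genes. No subunit gene passed an adjusted p of 0.05: 0 of 84 were called, where 0.00518% of all genes were, and DESeq2 also called 0. Without adjustment, 0 of the 84 had p under 0.05, against 7.79% of all genes. The fold changes nevertheless lay mostly on the negative side, with 77 below 0 (49.5% of all genes) and 7 above, and a median of -0.24 on the log2 scale against 0.006 over all genes. By complex the median log2 fold change was -0.28 for complex I, -0.09 for II, -0.19 for III, -0.16 for IV and -0.26 for V. Without colon KO replicate 2 it was -0.63, -0.35, -0.62, -0.64 and -0.55. The groups did not overlap for 1 gene, Atp5g2, which was lower in KO, against 6.53% of all genes. The margin was narrow, at 89.1 CPM in KO replicate 2 against 89.7 CPM in WT replicate 1. Of the Atp5g2 transcript, 87.4% of stretches of 50 bases also occur in other annotated transcripts, so its count is uncertain.

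The lowest p among these genes in colon belonged to Ndufa5, an accessory subunit of the matrix arm of complex I. Its level was 111, 128 and 126 CPM in colon WT and 69.4, 114 and 56.6 CPM in colon KO, a log2 fold change of -0.62 ± 0.27 (SE) with an adjusted p of 0.633 by edgeR. KO replicates 1 and 3 lay far below the WT values and KO replicate 2 among them. Ndufb4, an accessory subunit of the membrane arm, stood at 20.4, 25.3 and 26.4 CPM in WT and 11.2, 21.8 and 12.7 CPM in KO (log2 -0.67 ± 0.30, adjusted p = 0.636 by edgeR). Cox5a, a nuclear subunit bound to the core of complex IV, stood at 328, 308 and 323 CPM in WT and 217, 355 and 191 CPM in KO (log2 -0.34 ± 0.26, adjusted p = 0.720 by edgeR). In Cox5a, KO replicate 2 was the highest of the 6 libraries and the other KO libraries were the lowest. Without KO replicate 2 the log2 fold changes of Ndufa5, Ndufb4 and Cox5a were -0.97, -1.02 and -0.66, each with an adjusted p of 0.229 by edgeR. Uqcrc2, a core protein of complex III, went the other way at 305, 257 and 322 CPM in WT and 353, 392 and 311 CPM in KO (log2 0.25 ± 0.18, adjusted p = 0.712 by edgeR, and 0.16 without KO replicate 2). Sdha, the catalytic subunit of complex II, overlapped fully, at 425, 353 and 448 CPM in WT and 433, 440 and 427 CPM in KO.

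Colon KO replicate 2 was the highest colon library in 58 of the 84 genes and colon KO replicate 3 the lowest in 72. Relative to the mean of the 6 colon libraries, the median gene was at log2 0.35 in KO replicate 2, -0.40 in KO replicate 1 and -0.56 in KO replicate 3, while the WT libraries lay at 0.06, 0.07 and 0.17. Without KO replicate 2 the median log2 fold change was -0.61, 66 of the 84 genes had an unadjusted p under 0.05 (14.6% of all genes), and still 0 passed the adjusted threshold. Without KO replicate 1 it was -0.11, and without KO replicate 3 -0.09. The summed level of 8 epithelial markers moved with this split, at 14869, 27996 and 14234 CPM in colon KO replicates 1, 2 and 3 against 20461 to 22127 in colon WT. All 8 were above 0 in every library. Macrophage and monocyte markers, summed over 7 genes, ran opposite, at 326, 58.5 and 345 CPM in colon KO against 180 to 409 in WT. Absorptive colonocyte markers (7 genes) were 2549, 8563 and 1483 CPM in colon KO, but also varied widely in WT, at 4638, 785 and 2824 CPM. Smooth muscle markers (6 genes) were 689, 1952 and 837 CPM in colon KO and 225, 1168 and 354 CPM in WT. Their part in the result was not tested.

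**Figure D2:**
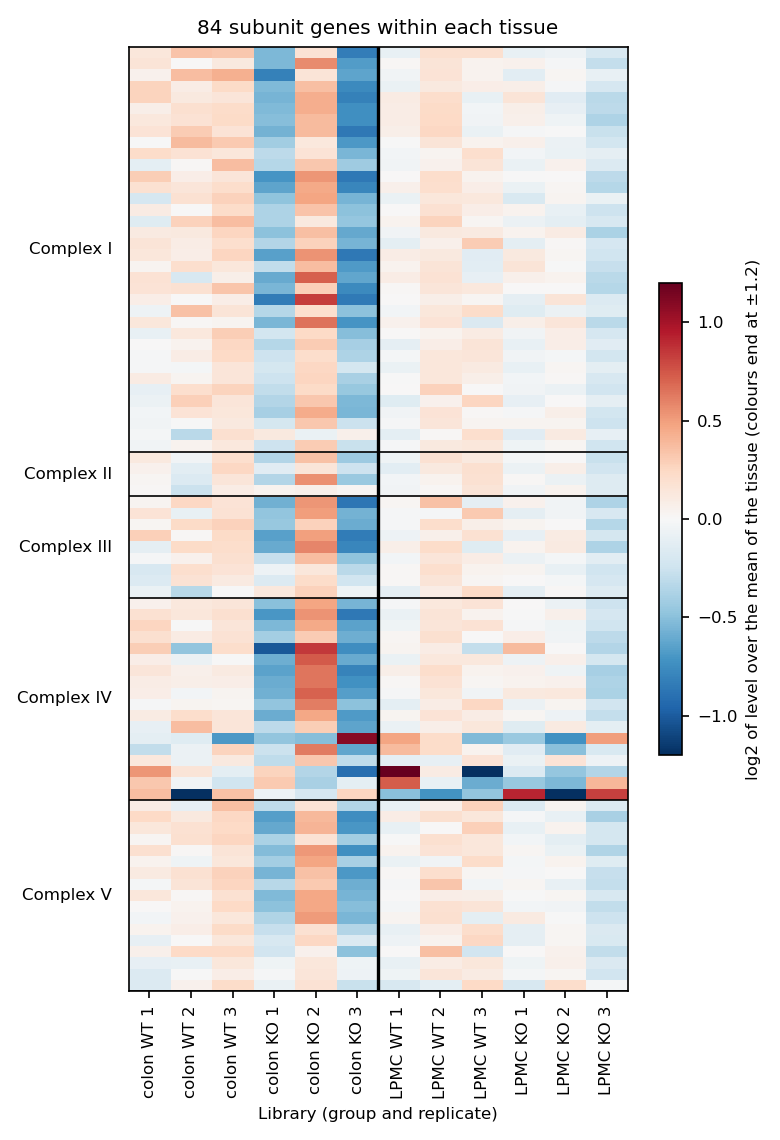
Each of the 84 tested genes (one line each, by complex) in each library, as log2 of its level over the mean of the 6 libraries of the same tissue. Colon KO replicate 2 is mostly red (median 0.35) and colon KO replicates 1 and 3 mostly blue (medians -0.40 and -0.56), while LPMC libraries differ less, with LPMC KO replicate 3 the lowest (median -0.22).

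In LPMC, 0 of the 84 genes were called between KO and WT by edgeR, against 0.0103% of all genes (0.00515% in each direction), and 0 by DESeq2. At an unadjusted p under 0.05 there were 2, against 2.64% of all genes. The fold changes were small and leaned one way, with 80 below 0 (50.8% of all genes), 4 above and a median log2 of -0.16 against -0.004 over all genes. The median was -0.14 in complexes I and II and -0.17 in complexes III, IV and V. For 16 genes every KO library lay below every WT library, against 3.75% of all genes, and for 0 every KO library lay above (3.66% of all genes). Of the 16, 7 belonged to complex I, 2 to III, 2 to IV and 5 to V. LPMC KO replicate 3 was the lowest LPMC library in 71 of the 84 genes, and without it the median was -0.10. The summed epithelial markers were 10327, 11308 and 12058 CPM in LPMC WT and 9776, 11545 and 8511 CPM in LPMC KO, lowest in that same library. Neutrophil markers were 50.4 to 109 CPM in LPMC WT and 528, 65.1 and 343 CPM in LPMC KO, and macrophage and monocyte markers 144 to 279 and 429, 139 and 480 CPM. Their part in the lean was not tested.

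Atp5k, subunit e of ATP synthase, which helps join the enzyme into dimers, had the lowest p in LPMC. Its level was 97.0, 104 and 99.9 CPM in WT and 90.4, 85.8 and 69.8 CPM in KO (log2 -0.30 ± 0.11, unadjusted p = 0.0313, adjusted p = 0.998 by edgeR). Atp5g3, which encodes subunit c of the proton-conducting ring, stood at 369, 422 and 405 CPM in WT and 362, 341 and 319 CPM in KO (log2 -0.23 ± 0.10, unadjusted p = 0.0478, adjusted p = 0.998 by edgeR). For both genes the LPMC groups did not overlap, by a margin smaller than the range within either group.

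The difference of the genotype effect between the tissues was tested as an interaction over all 12 libraries. None of the 84 genes was called (0.0% of all genes were, by edgeR, and DESeq2 also called 0 of these genes), and 0 had an unadjusted p under 0.05, against 4.69% of all genes. The median interaction was 0.09 on the log2 scale against -0.014 over all genes, with 23 genes below 0 (51.2% of all genes). It was 0.45 without colon KO replicate 2, with 43 genes at an unadjusted p under 0.05 (8.99% of all genes) and 0 called. The lowest p was that of Uqcrc2, at -0.42 ± 0.20 with an adjusted p of 0.902 by edgeR.

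Between tissues the subunit genes differed widely. LPMC had lower levels than colon for 62 of the 84 genes and higher levels for 2 by edgeR's quasi-likelihood test at an adjusted p under 0.05, while of all genes 24.9% were called lower and 25.4% higher, 50.3% in all. Without adjustment, 69 of the 84 had p under 0.05 (56.7% of all genes), and 77 lay below 0 (49.6% of all genes). The median log2 fold change was -0.69, a 1.62-fold lower level in LPMC, against 0.008 over all genes. With the 6 libraries of each tissue, 23 genes were lower in LPMC with no overlap (13.2% of all genes) and 1 was higher with no overlap (14.5% of all genes). Within WT libraries alone 61 genes were called (33.1% of all genes) and the median was -0.76. Within KO libraries alone 7 were called (25.7% of all genes), 6 of them lower, with a median of -0.64. Without colon KO replicate 2 the count over both genotypes was 65 (47.8% of all genes) and the median -0.50.

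In complex I, 30 of 36 genes were lower in LPMC and none was higher, with a median log2 of -0.69 (-0.54 without colon KO replicate 2). The accessory subunits, which surround the catalytic core, had a median of -0.73 (25 of 29 lower). The 7 core subunits encoded in the nucleus, which hold the flavin and the iron-sulfur clusters or bind ubiquinone, had a median of -0.39 (5 of 7 lower). Core genes also had longer coding sequences, with a median of 789 bp against 411 bp for the accessory genes. Ndufa5 was the most strongly lowered, from 111, 128 and 126 CPM in colon WT and 69.4, 114 and 56.6 CPM in colon KO to 40.8, 49.4 and 49.5 CPM in LPMC WT and 40.6, 41.5 and 37.8 CPM in LPMC KO. All LPMC values were below all colon values (log2 -1.19 ± 0.15, adjusted p = 0.000127 by edgeR). Ndufs4, an accessory subunit whose loss in humans causes Leigh syndrome, was also lower with no overlap (log2 -0.84 ± 0.12, adjusted p = 0.000186 by edgeR), as was Ndufa8 (log2 -0.88 ± 0.14, adjusted p = 0.000410 by edgeR). Ndufs1, the largest core subunit, stood at 157, 128 and 183 CPM in colon WT, 173, 151 and 167 in colon KO, 129, 141 and 161 in LPMC WT and 127, 151 and 131 in LPMC KO. These values overlapped and the difference was not called (log2 -0.19 ± 0.11, adjusted p = 0.154 by edgeR). Others of complex I that were not called were Ndufv1, Ndufa1, Ndufa10, Ndufb11 and Ndufc2, with log2 fold changes of -0.66 to -0.10.

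In complex II both membrane anchors were called lower in LPMC: Sdhc fell by a log2 of 0.71 ± 0.14 (adjusted p = 0.00177 by edgeR) and Sdhd by 0.43 ± 0.11 (adjusted p = 0.00825 by edgeR). For Sdhc the colon values were 289, 259, 307, 209, 341 and 197 CPM and the LPMC values 158, 186, 177, 161, 164 and 136 CPM, without overlap. The catalytic subunits were not called, and the difference between anchors and catalytic subunits was not tested. The catalytic genes also had longer coding sequences, with a median of 1419 bp against 492 bp for the anchors. Sdha stood at 353 to 448 CPM in colon and 385 to 477 CPM in LPMC (log2 0.02 ± 0.09, adjusted p = 0.851 by edgeR), and Sdhb, which holds the iron-sulfur clusters, had a log2 fold change of -0.33 ± 0.16 (adjusted p = 0.107 by edgeR, 0.0423 to 0.197 with a library left out), which lay within the errors of that of Sdhd. The Sdhd call was not reached within WT libraries or within KO libraries alone.

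In complex III, 7 of 9 genes were lower, with a median log2 of -0.78 (-0.52 without colon KO replicate 2). All 5 small subunits were among them (median -0.83), led by Uqcrq at log2 -0.99 ± 0.22 (adjusted p = 0.00317 by edgeR). Uqcr10 stood at 280, 325 and 335 CPM in colon WT, 201, 334 and 183 in colon KO, 152, 178 and 161 in LPMC WT and 157, 154 and 121 in LPMC KO. Its groups by tissue did not overlap (log2 -0.83 ± 0.15, adjusted p = 0.00105 by edgeR). Of the larger proteins, the electron carriers cytochrome c1 (Cyc1, log2 -0.46 ± 0.11, adjusted p = 0.00603 by edgeR) and the Rieske protein (Uqcrfs1, log2 -0.51 ± 0.14, adjusted p = 0.00912 by edgeR) were lower. The Cyc1 call was not reached within WT libraries or within KO libraries alone (adjusted p = 0.0501 and 0.0859 by edgeR). The core proteins Uqcrc1 (log2 -0.25 ± 0.11) and Uqcrc2 (log2 -0.07 ± 0.10) were not called. The 4 genes of the larger proteins had a median coding length of 1167 bp, against 246 bp for the small subunits.

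In complex IV, 11 of 18 tested genes were lower and 2 were higher, with a median log2 of -0.74. Without colon KO replicate 2 there were 10 lower and 3 higher, with a median of -0.49. The lower genes were the widely expressed forms, such as Cox7a2 (log2 -1.04 ± 0.17, adjusted p = 0.000500 by edgeR), Cox6b1 (log2 -0.93 ± 0.18, adjusted p = 0.00141 by edgeR) and Cox5a (log2 -0.92 ± 0.15, adjusted p = 0.000492 by edgeR), with one muscle form, Cox7a1. Cox4i1, the subunit through which ATP inhibits the enzyme, stood at 830, 897 and 859 CPM in colon WT, 512, 1066 and 482 in colon KO, 497, 543 and 516 in LPMC WT and 493, 466 and 398 in LPMC KO. Colon KO replicates 1 and 3 thus lay among the LPMC values, which was so for 5 of the 18 genes of this complex (log2 -0.67 ± 0.18, adjusted p = 0.0104 by edgeR). Cox7a1 (log2 -0.89 ± 0.31, adjusted p = 0.0345 by edgeR) lost its call when any 1 of 8 libraries was left out, with an adjusted p of 0.0129 to 0.0809 over the 12 fits that each left out a library. Cox7a2l, which joins complexes III and IV into supercomplexes, was not called (log2 0.16 ± 0.13), nor was Ndufa4 (log2 -0.23 ± 0.15).

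The genes higher in LPMC were forms with narrow expression. Cox4i2, the form known from lung and pericytes and induced by low oxygen, stood at 0.507, 0.395 and 0.344 CPM in colon WT, 0.506, 0.310 and 0.375 in colon KO, 2.34, 1.33 and 0.937 in LPMC WT and 1.03, 0.972 and 1.86 in LPMC KO. All LPMC libraries were above all colon libraries (log2 1.78 ± 0.31, adjusted p = 0.000731 by edgeR), from 17 to 245 counts per library. Cox6a2, the form of heart and skeletal muscle, stood at 0.0465 to 0.145 CPM in colon and 0.134 to 0.815 CPM in LPMC (log2 1.82 ± 0.46, adjusted p = 0.00681 by edgeR), from 2 to 112 counts, and was not called within either genotype alone. Cox8b, also a muscle form, had a log2 fold change of 1.27 ± 0.53 that was not called (adjusted p = 0.0661 by edgeR). Pericyte markers, summed over 7 genes, were 180 to 455 CPM in LPMC and 58.2 to 148 CPM in colon. Skeletal muscle markers, summed over 6 genes, were 127 to 257 CPM in LPMC and 5.01 to 17.0 CPM in colon, but Acta1 alone carried this, at 123 to 256 CPM in LPMC and 2.65 to 11.8 CPM in colon. The other markers of the list were not called: Ckm had a log2 fold change of 0.64 ± 0.73 and Mylpf of -0.13 ± 0.19 (adjusted p = 0.492 and 0.606 by edgeR), Tnnt3 stayed at 0.652 CPM or below and Myh1 at 0.0381 CPM or below, and Myh4 was at 0 in every library. Of the pericyte markers, Rgs5 was the highest, at 72.1 to 254 CPM in LPMC and 21.4 to 83 CPM in colon, while Kcnj8 stood at 3.9 to 22.5 and 8.97 to 27.4 CPM. The part of pericytes in the level of Cox4i2 was not tested.

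In complex V, 12 of 17 tested genes were lower and none was higher, with a median log2 of -0.62 (-0.45 without colon KO replicate 2). Atp5l, subunit g of the membrane part, had the lowest adjusted p of all the subunit genes. It stood at 34.9, 30.7 and 42.1 CPM in colon WT, 26.5, 36.7 and 25.7 in colon KO, 12.6, 14.0 and 16.3 in LPMC WT and 12, 13.7 and 12 in LPMC KO. All LPMC values were below all colon values (log2 -1.28 ± 0.13, adjusted p = 3.25e-05 by edgeR). Of the Atp5l transcript, 68.5% of stretches of 50 bases also occur in other annotated transcripts, so its count is uncertain. Atp5g3 had no such stretches and stood at 751, 845 and 886 CPM in colon WT, 567, 835 and 554 in colon KO, 369, 422 and 405 in LPMC WT and 362, 341 and 319 in LPMC KO. It too was lower without overlap (log2 -1.0 ± 0.12, adjusted p = 7.81e-05 by edgeR), as was Atp5k (log2 -1.06 ± 0.18, adjusted p = 0.000752 by edgeR). Atp5b, of the catalytic head, differed least within the complex and stood at 1953, 2185 and 2313 CPM in colon WT, 2165, 2415 and 2102 in colon KO, 2064, 2358 and 2293 in LPMC WT and 2104, 2170 and 1826 in LPMC KO. The tissues overlapped for Atp5b (log2 -0.04 ± 0.10) and for Atp5a1 (log2 -0.13 ± 0.10). Both also had the longest coding sequences of the complex, at 1587 and 1659 bp. Of the central stalk, which turns inside the head, Atp5d and Atp5e were lower (log2 -0.57 and -0.78) and Atp5c1 was not called (log2 -0.28 ± 0.11, adjusted p = 0.0511 by edgeR).

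**Figure D3:**
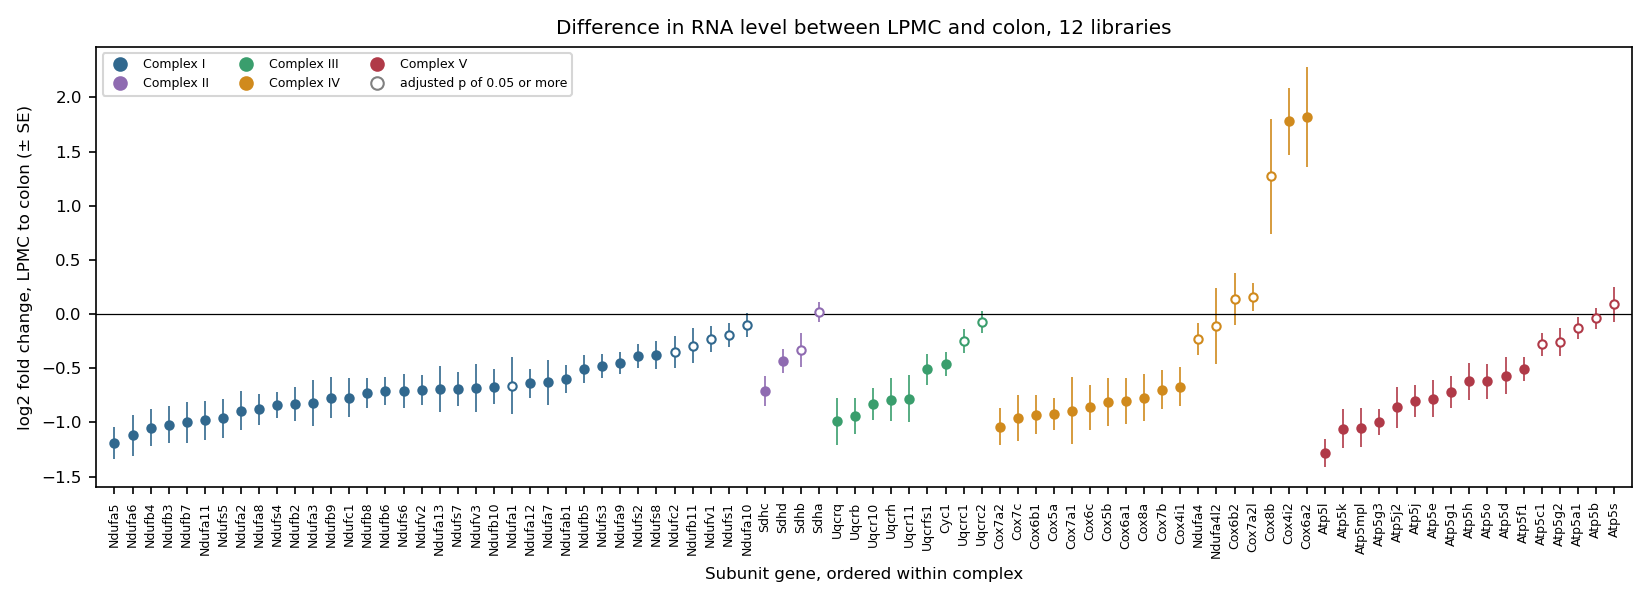
Log2 fold change of LPMC to colon for each tested gene with its standard error, ordered within complex, with filled points for an adjusted p under 0.05. The genes called lower lie between -1.28 and -0.38, the catalytic genes Sdha and Atp5b at 0.02 and -0.04, and the narrowly expressed Cox4i2 and Cox6a2 at 1.78 and 1.82.

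Several positions of the complexes can be filled by the product of more than 1 gene. The share of each alternative gene in the summed level per kilobase at its position was compared between tissues by a two-sided exact permutation test over the 12 libraries, adjusted over the 9 shares. Subunit c of ATP synthase comes from 3 genes whose mature proteins are identical. Atp5g3 supplied 74.2% of its level in colon and 67.1% in LPMC, Atp5g2 11.2% and 16.8%, and Atp5g1 14.6% and 16.1%. The Atp5g3 share was 72.8 to 75.8% in colon libraries and 64.6 to 70.9% in LPMC libraries, with no overlap (adjusted exact p = 0.00389), and the Atp5g2 share was 10.2 to 12.2% and 13.9 to 18.5%, also with no overlap (adjusted exact p = 0.00389). The Atp5g1 ranges, 13.4 to 16.1% and 15.2 to 17.2%, overlapped (adjusted exact p = 0.0167). The level of Atp5g2 itself was not higher in LPMC, with means of 85.8 CPM in colon and 71.2 CPM in LPMC. That difference was not called (log2 -0.26 ± 0.13, adjusted p = 0.114 by edgeR). Most of the Atp5g2 transcript, 87.4% of its stretches of 50 bases, is shared with other annotated transcripts, so its share is uncertain. The size of a share also depends on the length used. With the transcript of the longest coding sequence in place of the exon union, Atp5g3 supplied 84.5% in colon and 78.6% in LPMC. Atp5g2 then supplied 9.73% and 14.9%, and Atp5g1 5.75% and 6.51%.

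The forms with narrow expression stayed minor in every library. Cox4i2 supplied 0.115 ± 0.0514% of the Cox4i level in colon and 0.579 ± 0.261% in LPMC (SD, n = 6, adjusted exact p = 0.00389). For Cox6b2, a form known from testis, the share was 0.348 ± 0.0639% in colon and 0.731 ± 0.150% in LPMC (SD, n = 6, adjusted exact p = 0.00389), although its own level was not called between tissues (log2 0.14 ± 0.24). By the length of the transcript with the longest coding sequence, the Cox6b2 share was 0.856% in colon and 1.79% in LPMC. Cox6a2 supplied 0.0212% and 0.133% (adjusted exact p = 0.00389) and Cox8b 0.0383% and 0.146% (adjusted exact p = 0.0167). The muscle form Cox7a1 was the largest of these minor forms at 7.09 ± 1.79% of Cox7a1 and Cox7a2 in colon and 8.14 ± 1.37% in LPMC (SD, n = 6), and the difference did not pass (adjusted exact p = 0.312). Ndufa4l2, which takes the place of Ndufa4 under low oxygen, supplied 2.71 ± 2.34% in colon and 2.58 ± 1.04% in LPMC (SD, n = 6, adjusted exact p = 0.942). Its highest share was 7.40%, in colon KO replicate 3, against 1.34 to 2.34% in the colon WT libraries. Between KO and WT none of the 9 shares passed in either tissue (all adjusted p = 1.0), where 3 libraries against 3 allow no exact p below 0.1.

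**Figure D4:**
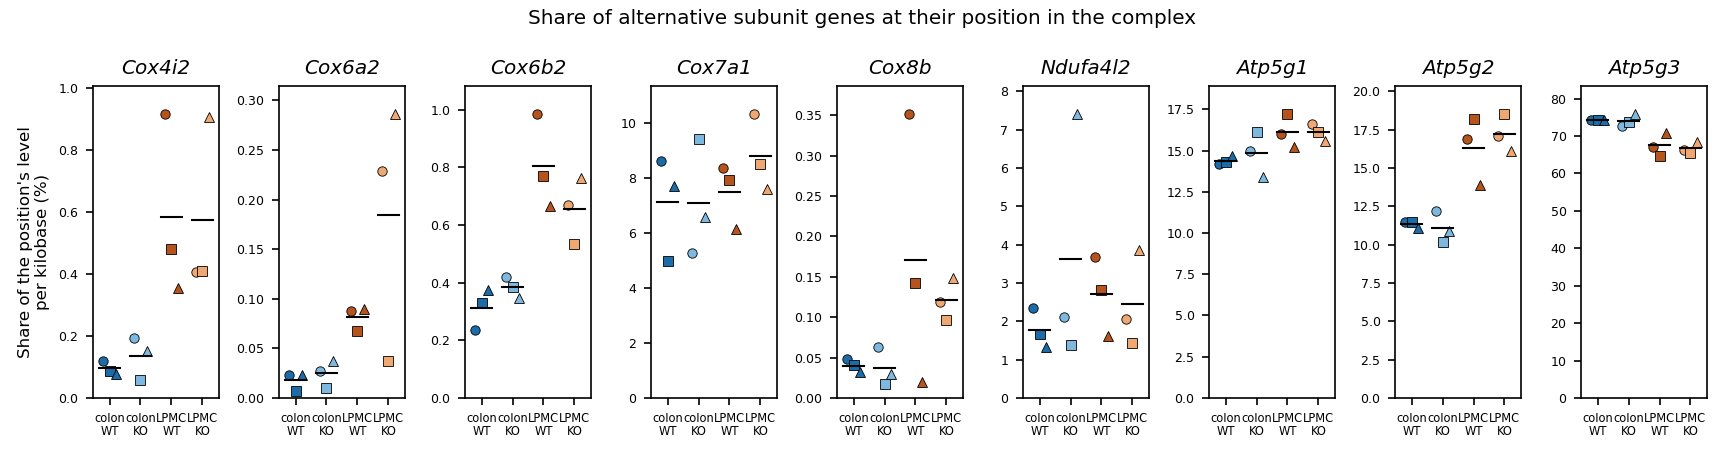
Share of each alternative gene in the level per kilobase at its position, in percent, for each library (points, shaped by replicate as circle, square and triangle for 1, 2 and 3) and the mean of each group (line). Cox4i2, Cox6b2 and Atp5g2 are higher, and Atp5g3 lower, in all LPMC libraries than in all colon libraries, and each panel has its own scale.

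The size of the protein ran along with the size of the tissue difference. In bins of coding length, set after the values were seen, the median log2 fold change of LPMC to colon was -0.81 for the 22 genes under 300 bp, -0.72 for 40 genes of 300 to 600 bp, -0.50 for 10 of 600 to 900 bp, -0.45 for 3 of 900 to 1200 bp and -0.19 for 9 of 1200 bp or more. Other protein-coding genes showed the same order at a higher level, with medians of -0.43, -0.32, -0.12, -0.01 and 0.23. Lower calls made up 77.3% of the subunit genes and 45.5% of other genes under 300 bp, and 22.2% and 16.8% at 1200 bp or more. Spearman's rho of fold change with coding length was 0.52 over the 84 genes and 0.66 over the 78 of at least 10 CPM. Over 15850 other protein-coding genes it was 0.22. These correlations are across genes that share the same 12 libraries and genes are not independent replicates. The groups by role described above also differed in coding length, and the parts of role and length in the tissue difference were not tested.

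Per library, the summed level of the 62 genes under 600 bp was 1.56, 1.5 and 1.43 times that of the 22 longer genes in colon WT, and 1.06, 1.64 and 1.02 times in colon KO. In LPMC WT it was 0.971, 0.970 and 0.916 times and in LPMC KO 0.973, 0.937 and 0.903 times. Colon KO replicates 1 and 3 thus lay nearer to LPMC than to colon WT in this ratio, and replicate 2 nearer to colon WT. Over other protein-coding genes the ratio was 0.191, 0.225 and 0.203 in colon WT, 0.151, 0.186 and 0.140 in colon KO, and 0.135 to 0.157 in LPMC. Over these other genes, short genes were thus lower against long ones in LPMC and in all 3 colon KO libraries than in colon WT. For colon KO replicate 2 the margin was small (0.186 against 0.191), and its ratio for the subunit genes, 1.64, was above every colon WT library. The part of the shift over other genes in the result was not tested. For KO against WT in colon, rho was 0.36 over the 84 genes and 0.39 over 15224 other genes, and in LPMC 0.10 and 0.17.

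**Figure D5:**
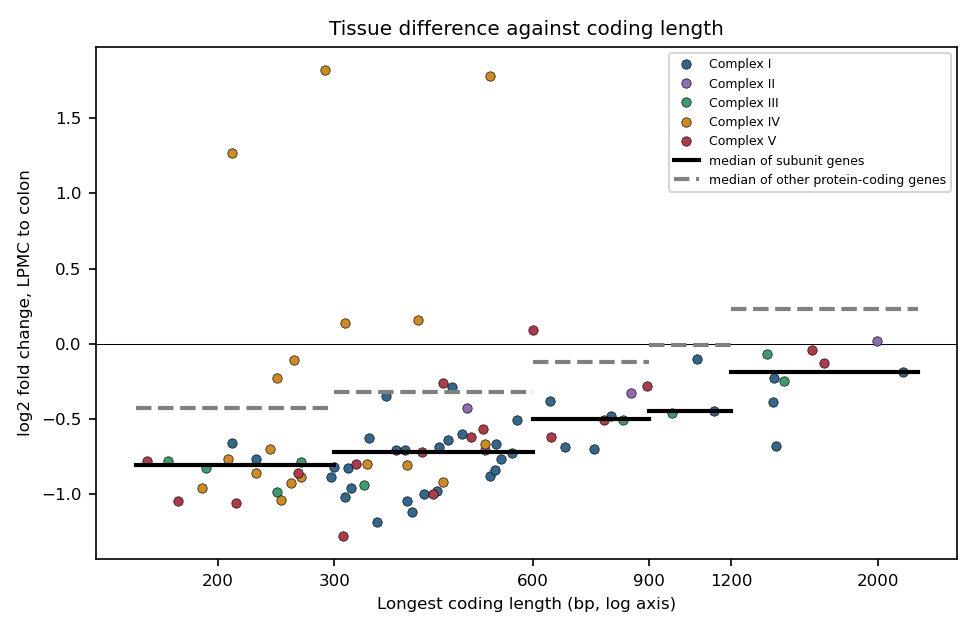
Log2 fold change of LPMC to colon against the longest coding length (log axis) for each tested subunit gene, coloured by complex, with the median of the subunit genes (solid lines) and of other protein-coding genes (dashed lines) in each of 5 length bins. The subunit genes lie below the other genes in each bin, by medians of -0.81 against -0.43 under 300 bp and -0.19 against 0.23 at 1200 bp or more.

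The promoter motifs described above were set beside the tissue calls. Of the genes with a window, CCGGAAG was present in 15 of the 52 called lower in LPMC and in 1 of the 17 others. AAGATGGCG was present in 7 of 52 and 0 of 17, the NRF1 motif in 13 of 52 and 4 of 17, and TATAAA in 5 of 52 and 2 of 17. The 17 include Cox7b2, which was not tested between tissues and carries TATAAA. They are few, and the same split was not made over all genes. A link of these motifs to the tissue difference was not tested. Sdha, with the NRF1 motif at 3 places, was not called, and Cox6a1, with the same motif at 2 places, was lower in LPMC (log2 -0.80 ± 0.21, adjusted p = 0.00928 by edgeR).

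Other mitochondrial and metabolic genes were compared in the same fit, in which 24.9% of all genes were called lower in LPMC and 25.4% higher. Of the mitochondrial ribosome, which makes the subunits encoded in mitochondria, 56 of 77 tested genes were lower in LPMC and 0 higher, with a median log2 of -0.53. Of the assembly factors of complexes I to V, 16 of 43 were lower and 4 higher (median -0.23), and Cox17, the copper chaperone of complex IV, was at -1.90 ± 0.16. Of 10 electron carriers and exchangers, 7 were lower and 1 higher (median -0.48), among them cytochrome c (Cycs, log2 -1.13 ± 0.15) and the outer membrane channel Vdac2 (log2 -0.95 ± 0.10). The citric acid cycle, which feeds the chain, had 2 of 13 lower and 1 higher (median 0.09), with citrate synthase (Cs) lower at -0.69 ± 0.10. Fatty acid oxidation had 3 of 12 lower and 3 higher (median 0.18). Neither it nor the citric acid cycle was called more often than all genes were (50.3% in either direction).

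Glycolysis genes had a lower median than the respiratory chain, with 13 of 14 called lower, 1 higher and a median log2 of -1.17. Here too the shares over all genes were 24.9% lower and 25.4% higher. Ldha, which makes lactate, was at -1.57 ± 0.14 and Pgk1 at -1.51 ± 0.12. Of 12 genes of the response to low oxygen, 7 were lower and 1 higher (median -0.91), with Egln3 and Bnip3 both at -2.45. Regulators of mitochondrial biogenesis went mostly the other way, with 7 of 13 higher and 1 lower (median 0.42). Ppargc1b, a coactivator that drives respiratory genes, was higher at 0.92 ± 0.14, and Esrra, a nuclear receptor that works with it, was the gene called lower at -0.88 ± 0.15. Between KO and WT, 0 genes of these lists were called in either tissue. In colon, the mitochondrial ribosome had 74 of 77 genes below 0 (49.5% of all genes), a median of -0.45 and 28 genes at an unadjusted p under 0.05 (7.79% of all genes). Without colon KO replicate 2 there were 73 below 0, a median of -0.53 and 34 genes at that p (14.6% of all genes). Ppargc1a had a log2 fold change of 0.91 ± 0.29 (adjusted p = 0.632 by edgeR).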

How the data were processed

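The authors deposited raw counts, as whole numbers for each Ensembl gene in the 12 libraries. Per the labels' protocols, stranded poly(A) libraries were prepared with a TruSeq kit and sequenced on an Illumina HiSeq, and per the submitters' processing notes STAR was used and the build was GRCm38 (mm10). The counting tool, annotation and strand setting are not stated there, so reads of overlapping genes and near-identical copies cannot be told apart: Ndufb6 and Ndufa13 share 39.0 and 30.0% of exon bases with genes of the opposite strand. Of 54109 identifiers, 54042 matched GENCODE M21. Even counts were in excess (71.9% of low counts), as when both mates of a pair are counted, which makes the true counting error exceed that of independent reads.

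The counts were tested with edgeR 4.0.16 in R 4.3.3 (TMM scaling, filterByExpr with a minimum count of 10, robust quasi-likelihood F-test, Benjamini-Hochberg adjustment over all genes, called under 0.05). KO and WT were compared on the 6 libraries of a tissue, and tissues and the interaction on all 12 with a mean per group. The standard error is the log2 fold change divided by the square root of F. Shares were tested by exact permutation in SciPy 1.17.1. Alternatives were DESeq2 1.42.0, its size factors, library totals, no filter, a replicate block, each genotype alone and each library left out; the fits were tested on simulated data.

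Genes were named by a rule: per complex the 2 highest and the 1 lowest per kilobase, the alternative subunits, complex II, Cyc1, and for each comparison the called genes, or the 3 of lowest p per direction and complex where over 30 were called, or the 2 of lowest p where none was. Genes listed as not called, Ndufs1, Uqcrfs1, Atp5c1, Atp5d, Atp5e and Atp5s were added after their values were seen, as were the groups by role. The genes and lists were chosen with earlier results of these data known. Levels are TMM-scaled CPM, and coding length is the longest coding sequence of the gene in GENCODE M21.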

Additional observations from a re-analysis of the deposited data

How the results depend on the processing

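Counts of called genes were 0 in both KO to WT comparisons and the interaction under every alternative run, and 60 to 69 for LPMC to colon, except 7 within KO libraries alone. The median log2 fold change ran from -0.61 to -0.09 in colon, from -0.19 to -0.10 in LPMC, from -0.08 to 0.45 for the interaction and from -0.79 to -0.50 for the tissues as single libraries were left out. In each of colon, the interaction and the tissues, the value farthest from that of all libraries (-0.61, 0.45 and -0.50) came without colon KO replicate 2, and the cause was not tested. With the replicate number as a block, 0, 0, 0 and 63 genes were called, with medians of -0.32, -0.16, 0.13 and -0.67; the labels do not say what a number marks, and same-numbered libraries correlated at -0.274 to 0.303. Between colon and LPMC of 1 genotype these correlations were 0.081 to 0.163 in WT, where 6 of 6 libraries correlated best with their own number, and 0.064 to 0.303 in KO, where 3 of 6 did, a hint from the data and not from the design. Fold changes near 0 turned sign: Atp5b was 0.03 with library totals, 0.04 in WT libraries and -0.07 to 0.00 with a library left out; Sdha was -0.07 in KO libraries and -0.02 to 0.06 with a library left out; Cox6b2 was -0.12 in KO libraries; Ndufa4l2 was 0.27 in WT libraries and -0.33 to 0.26 with a library left out; and the interaction of Sdhb ran from -0.30 to 0.28, with 0.28 without colon KO replicate 2. The tissue difference in the share of Ndufa4l2 ran from -0.398 to 0.815 percentage points and turned positive on leaving out replicate 3 of colon KO (0.815), replicate 3 of LPMC WT (0.0677) or replicate 2 of LPMC KO (0.105). The other shares and the sums by complex, tried after seeing the data with other lengths, library totals and each library left out, kept direction and call. DESeq2 moved the median of all genes to -0.098 in the tissue comparison, against -0.71 for the subunit genes. Cox8b rests on 2 to 76 counts and Cox6a2 on 2 to 112, which limits both.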
